A study of Mus musculus with 18 samples.

Results

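Cbx7 and 8 other genes for subunits of the Polycomb repressive complexes, 9 of the 54838 genes in the table, were followed across mouse livers and liver tumours. They were taken by gene symbol, as a family chosen with earlier results of these data known, and are Cbx7, Cbx2, Cbx6 and Cbx8, Ring1 and Rnf2, Bmi1 and Pcgf2, and Ezh2. RNA of 18 samples was sequenced, 3 in each of 6 groups. Wild-type (WT) mice and mice with a global knockout (GKO) of the miR-181ab1 cluster, both C57BL/6, gave a tumour group and a non-tumour liver group after diethylnitrosamine (DEN, a carcinogen that hepatocytes activate), and a normal liver group from untreated animals. As labelled, a single intraperitoneal dose of DEN (25 mg/kg) was given on postnatal day 12, and all samples were taken at an age of 36 weeks. The deletion was present in all tissues from the start of life, so that a difference between genotypes need not arise in hepatocytes. Which tumour and which non-tumour liver came from 1 mouse was not given, and the p-values below measure the spread between these samples.

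Polycomb proteins keep developmental and cell-cycle genes silent through 2 complexes. In Polycomb repressive complex 2 (PRC2), EZH2 or its relative EZH1 methylates histone H3 at lysine 27. In canonical PRC1, a CBX protein reads that methyl mark, a PCGF protein such as BMI1 or PCGF2 organises the complex, and RING1 or RNF2 (also called RING1B) places ubiquitin on histone H2A. The Ink4 locus, which holds the cell-cycle inhibitors Cdkn2a and Cdkn2b, is the best known target of Bmi1 and Cbx7 in cultured cells.

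The miRNA sequences are shown because the study asks whether miR-181 acts on Cbx7. The target sites are shown because they hold the letters in the 3′ UTR that can pair with the seed. From RefSeq (GRCm38.p6), the mature strands of the deleted cluster lie on the plus strand of chromosome 1, at 137966468 to 137966490 for miR-181a-5p and at 137966650 to 137966673 for miR-181b-5p. Capitals mark the seed, bases 2 to 8, which is the same in both.
miR-181a-5p: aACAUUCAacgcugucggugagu
miR-181b-5p: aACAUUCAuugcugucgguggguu
In the longest annotated 3′ UTR of each gene (GENCODE, mm10), Cbx7 held 2 matches to this seed that were followed by an A (8mers, TGAATGTA). They lay at chr15:79916298-79916305 and chr15:79915991-79915998 on the minus strand. The final A lies opposite base 1, outside the seed. Cbx8 and Pcgf2 each held 1 match to the whole seed without that A (a 7mer, TGAATGT). These lay at chr11:119036356-119036362 and chr11:97689488-97689494, both on the minus strand. The windows below are printed 5′ to 3′ along the mRNA, with the match in capitals.
Cbx7, first site: ccctgcatattTGAATGTAgaggttgggtt
Cbx7, second site: ttcagacgaccTGAATGTAttgggaggaat
Cbx8 site: atcttgggttgTGAATGTgtctgtatcca
Pcgf2 site: ccccccgttgtTGAATGTtcagagttgct
The UTRs of Cbx2, Cbx6, Ring1, Rnf2, Bmi1 and Ezh2 held neither word on the mRNA strand, over lengths of 402 bases in Ezh2 to 4084 bases in Cbx6. Of 21021 genes with an annotated 3′ UTR, 16.4% held at least 1 such match, 5.27% held an 8mer and 0.519% held 2 or more 8mers. Both Cbx7 sites were also present in the other long transcript, with a UTR of 2286 bases, and absent from the 2 transcripts with UTRs of 171 and 209 bases. Of the 5 Pcgf2 transcripts, 2 held the match. A match is a word in the annotation, and its use in these tissues was not measured. The paper credits the deleted cluster with the greater part of mature miR-181 in human liver cancers. Whether other miRNAs with this seed remained in GKO tissue was not measured here. Only the 8mer and 7mer words above were searched for, and no other form of seed match.

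The deleted genes could not be checked from these values. Mir181a-1 was listed at 0 in 17 samples and at 1.40 TPM, which is 1 read, in GKO tumour 3, and Mir181b-1 was listed at 0 throughout. The samples held 11925055 to 20751348 reads on genes, so that the 9 genes had from 16 reads (Cbx7, WT tumour 1) to 836 reads (Ring1, WT non-tumour liver 1). All 10 hepatocyte markers were above 0 in every group. WT tumour 3 and WT non-tumour liver 2 stood apart from their groups: their mean correlation with the other samples of the group, over 13914 genes, was 0.92 and 0.931, and that of the other 16 samples was 0.942 to 0.975. Results that turn on these 2 samples are given with and without them.

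Levels below are in TPM, reads per gene length scaled to the same sum in each sample. Ring1 was the highest member, with a mean of 19.2 TPM over the 18 samples, before Bmi1 at 9.85, Rnf2 at 6.12 and Pcgf2 at 6.05 TPM. The CBX members were lower, with means of 3.86 TPM for Cbx8, 3.20 for Cbx2, 2.73 for Cbx7 and 1.87 for Cbx6, and Ezh2 was lowest at 0.951 TPM. Cbx7 varied most, with its highest sample 17.4 times its lowest, against 2.30 to 4.75 times for the other 8 members. The summed level of the 9 genes was 38.3 to 55.8 TPM in normal livers, 51.5 to 64.3 TPM in non-tumour livers and 49.3 to 67.3 TPM in tumours.

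**Figure D1:**
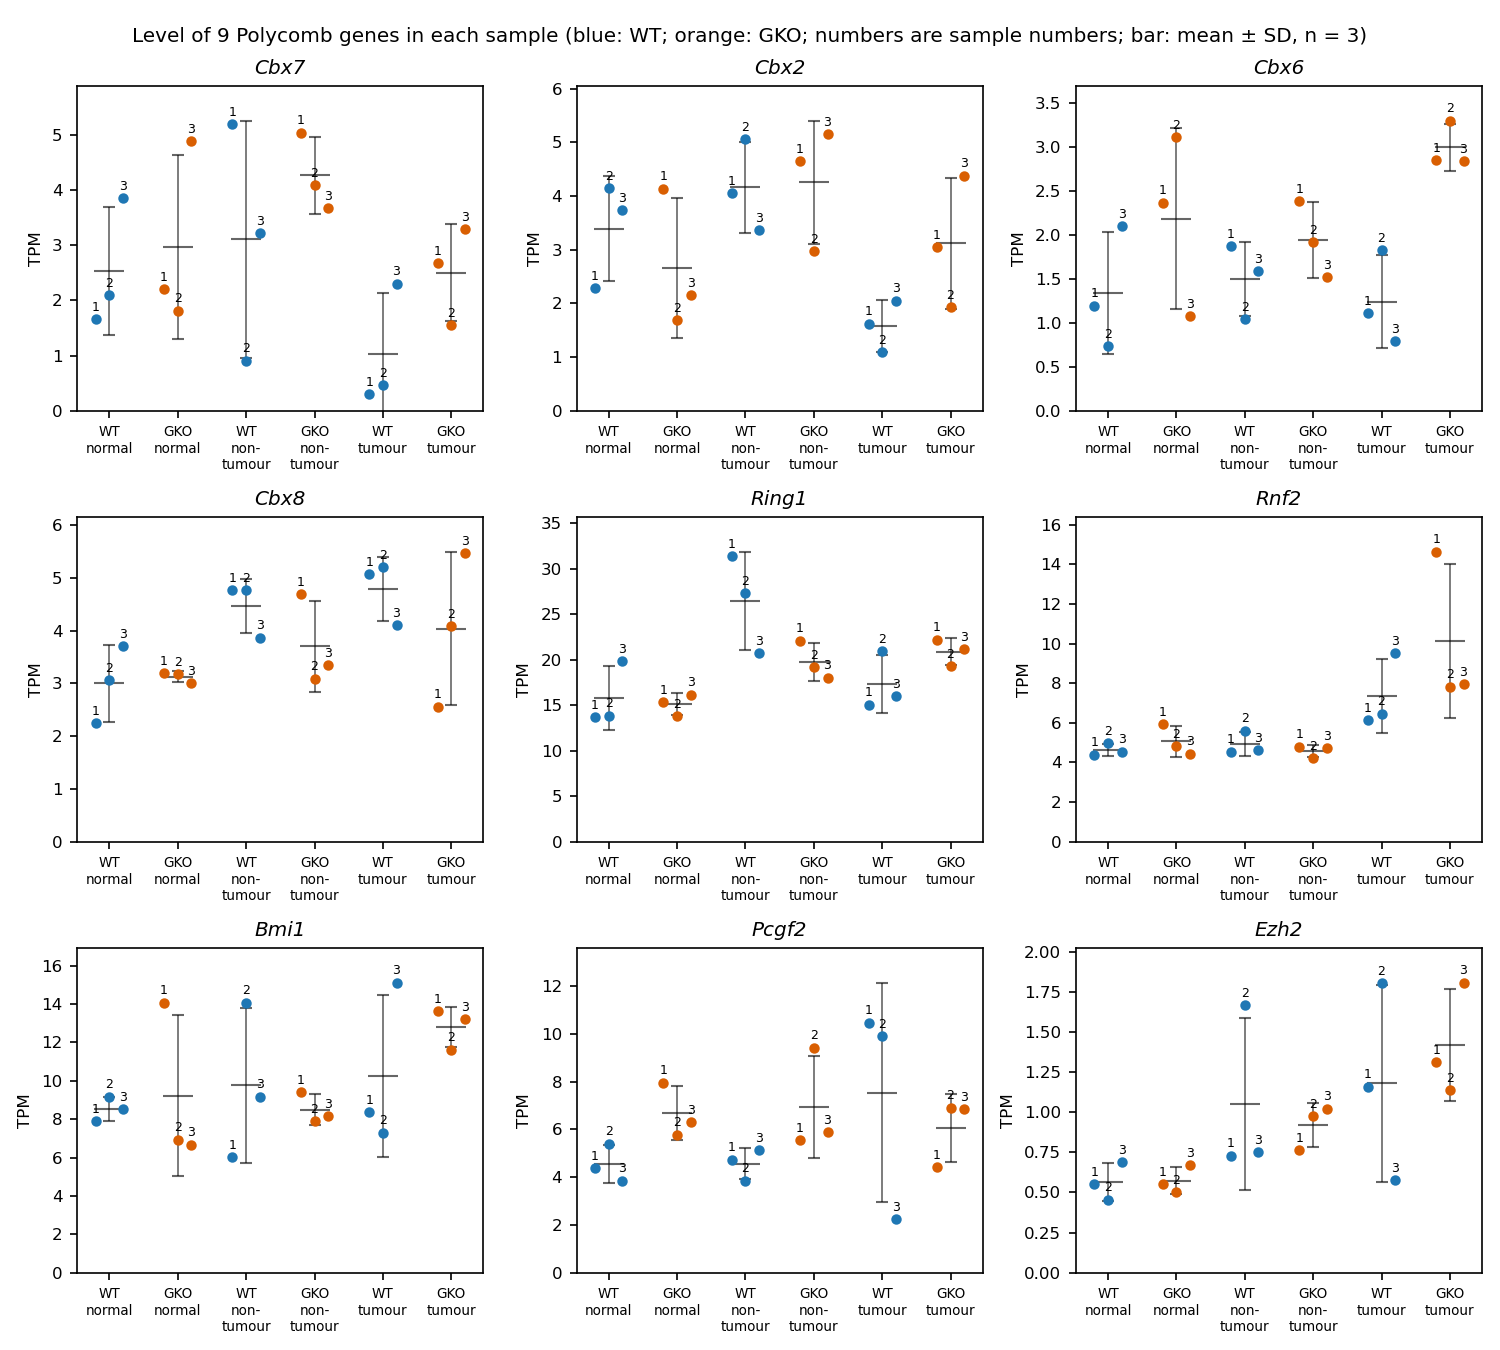
Level in TPM (y axis) of each of the 9 Polycomb genes in the 6 groups (x axis), with 1 point per sample, numbered 1 to 3, and bars at the mean ± SD of 3 samples (the axis starts at 0, which cuts the lower bar of Cbx7 in WT tumours). Rnf2 was above 6 TPM in all 6 tumours and below it in all 12 livers, whereas Cbx7 was lowest in WT tumours 1 and 2 and in WT non-tumour liver 2.

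Among the 9 genes, differences were called only between tumours and non-tumour livers over both genotypes, where Rnf2 rose and Cbx2 fell. Rnf2 encodes the main H2A ubiquitin ligase of PRC1, and its mean level was 8.75 ± 3.13 TPM (SD, n = 6) in tumours against 4.75 ± 0.47 TPM (n = 6) in non-tumour livers, a ratio of 1.84. Cbx2, a reader subunit, had a mean of 2.35 ± 1.18 TPM in tumours against 4.21 ± 0.90 TPM in non-tumour livers, a ratio of 0.558. These 2 of the 9 members were called at an adjusted p under 0.05 by limma, close to the background of 21.3% of 14106 genes called in this comparison (12.9% higher and 8.46% lower), and 3 were at an unadjusted p under 0.05 (36.2% of genes). In bulk tissue, fewer cells of a type and less RNA per cell cannot be told apart.

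Cbx7 (chr15:79915807-79971119 in mm10, minus strand) encodes a protein that binds methylated lysine 27 and carries PRC1 to it. It was at 0.298, 0.469 and 2.31 TPM in WT tumours 1 to 3 and at 2.67, 1.55 and 3.29 TPM in GKO tumours. In non-tumour livers it was at 5.2, 0.906 and 3.22 TPM in WT and at 5.04, 4.09 and 3.67 TPM in GKO. Thus WT tumours 1 and 2 and WT non-tumour liver 2 were low, and the WT groups overlapped, while every GKO tumour was below every GKO non-tumour liver. In normal livers Cbx7 was at 1.66, 2.10 and 3.85 TPM in WT and at 2.21, 1.82 and 4.89 TPM in GKO. The group means ran from 4.27 ± 0.70 TPM in GKO non-tumour livers through 3.11 ± 2.15 in WT non-tumour livers, 2.97 ± 1.67 in GKO normal livers, 2.54 ± 1.16 in WT normal livers and 2.50 ± 0.88 in GKO tumours to 1.02 ± 1.11 TPM in WT tumours (SD, n = 3). Each group in this order overlapped the next.

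Over both genotypes, Cbx7 differed between tumours and non-tumour livers by -0.80 ± 0.31 (SE) on the log2(TPM + 1) scale, a scale that understates the change of low genes. With a limma adjusted p of 0.0869 it was not called, although its ratio of tumour to non-tumour means, 0.478, was below that of Cbx2 (0.558). Without WT non-tumour liver 2 the difference was -1.04 (adjusted p = 0.0162), without WT tumour 3 it was -1.01 (adjusted p = 0.0258), and without both it was -1.25 (adjusted p = 0.0013), all by limma. Under the other 16 alternatives the adjusted p was above 0.05 with the same sign, with a difference of -1.24 for a pseudocount of 0.1 and -1.45 by limma voom on the recovered reads, scales that compress low values less. Within GKO mice the difference was -0.61 ± 0.25 (adjusted p = 0.14, limma), against a median of 0.20 over all genes, and with each sample centred on its median it was -0.85 (adjusted p = 0.0416). Within WT mice it was -0.99 ± 0.53 (adjusted p = 0.355), and -1.89 (adjusted p = 0.0101) without the 2 samples named above.

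Cbx2 (chr11:119022962-119031270, plus strand) was at 1.62, 1.09 and 2.05 TPM in WT tumours and at 4.06, 5.06 and 3.37 TPM in WT non-tumour livers, so that the groups did not overlap. In GKO mice it was at 3.05, 1.92 and 4.38 TPM in tumours and at 4.65, 2.97 and 5.16 TPM in non-tumour livers, and the groups overlapped. The 6 normal livers were at 1.69 to 4.15 TPM, with a mean of 3.03 TPM, and overlapped both tumours and non-tumour livers. Over both genotypes Cbx2 fell by 0.69 ± 0.19 on the log2(TPM + 1) scale (limma adjusted p = 0.0254). The call was lost with no filter on low genes (adjusted p = 0.0584) and without any 1 of 5 samples: WT non-tumour liver 1 (0.0525), GKO non-tumour liver 3 (0.0691), WT tumour 1 (0.0507), WT tumour 2 (0.0615) or GKO tumour 2 (0.0524). The difference was -1.0 ± 0.23 within WT mice (adjusted p = 0.0669), where it was called without WT tumour 3 (adjusted p = 0.0387), and -0.37 ± 0.29 within GKO mice (adjusted p = 0.397). Whether these 2 values differ was tested as the interaction, which was 0.63 ± 0.38 (adjusted p = 0.522).

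Cbx8 (chr11:119036305-119040969), which lies 5035 bases from Cbx2 on the minus strand, was at 5.07, 5.2 and 4.1 TPM in WT tumours and at 4.77, 4.77 and 3.87 TPM in WT non-tumour livers. In GKO mice it was at 2.56, 4.09 and 5.47 TPM in tumours and at 4.69, 3.09 and 3.34 TPM in non-tumour livers. The groups overlapped in both genotypes, and the tumour difference was 0.08 ± 0.17 on the log2(TPM + 1) scale (limma adjusted p = 0.767), with the opposite sign after median centring (-0.051) and by voom (-0.074). Cbx6 (chr15:79823896-79834688), which lies 81119 bases from Cbx7 on the same strand, differed by 0.14 ± 0.15 (adjusted p = 0.537). In GKO mice alone every Cbx6 tumour value, 2.85, 3.30 and 2.84 TPM, was above the non-tumour values of 2.38, 1.91 and 1.52 TPM, with a difference of 0.45 ± 0.20 that was not called (adjusted p = 0.163).

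Rnf2 (chr1:151458004-151500955, minus strand) was at 6.13, 6.46 and 9.53 TPM in WT tumours and at 4.54, 5.61 and 4.63 TPM in WT non-tumour livers. In GKO mice it was at 14.6, 7.82 and 7.94 TPM in tumours and at 4.80, 4.21 and 4.72 TPM in non-tumour livers. All 6 tumours were above all 6 non-tumour livers, and also above the 6 normal livers, which ranged from 4.39 to 5.93 TPM. Over both genotypes Rnf2 rose by 0.71 ± 0.17 on the log2(TPM + 1) scale (limma adjusted p = 0.0155). The call held under all 19 alternatives, with differences of 0.58 to 0.81 and adjusted p from 0.0034 to 0.0439, also without WT tumour 3 and WT non-tumour liver 2 (0.66, adjusted p = 0.0209). Neither genotype alone passed the threshold, with 0.95 ± 0.27 in GKO mice (adjusted p = 0.0614, and 0.0089 with all 18 samples in 1 fit, the 1 of 12 alternatives that called it) and 0.48 ± 0.22 in WT mice (adjusted p = 0.297).

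Ring1 (chr17:34020792-34024680, minus strand), the second ligase gene, was at 15.1, 20.9 and 16 TPM in WT tumours and at 31.4, 27.3 and 20.7 TPM in WT non-tumour livers. In GKO mice it was at 22.2, 19.3 and 21.2 TPM in tumours and at 22.1, 19.2 and 18 TPM in non-tumour livers, where the groups overlapped. The tumour difference over both genotypes was -0.25 ± 0.15 (limma adjusted p = 0.244).

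Because Rnf2 and Ring1 fill the same place in PRC1, the share of Rnf2 in their summed TPM was computed for each sample, a measure chosen after the values of both genes had been seen and so no independent evidence of the rise of Rnf2. The share was 28.9%, 23.6% and 37.4% in WT tumours and 12.6%, 17% and 18.3% in WT non-tumour livers. In GKO mice it was 39.7%, 28.8% and 27.3% in tumours and 17.8%, 18% and 20.8% in non-tumour livers. All 6 tumours were thus above all 6 non-tumour livers, with means of 31.0% and 17.4% and a difference of 13.5 percentage points, which stayed between 11.6 and 15.1 when any 1 sample was left out. The exact two-sided permutation test within genotypes gave p = 0.005, the smallest it can give here, and 0.04 after Benjamini-Hochberg adjustment over 8 tests of shares. In normal livers the share was 18.6% to 27.9%, which overlapped both.

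The shares of Bmi1 and Ezh2, formed in the same way, overlapped between tumours and non-tumour livers. Bmi1 made up 63.0% of the Bmi1 and Pcgf2 TPM in tumours and 60.9% in non-tumour livers (exact permutation p = 0.815), with 44.4%, 42.4% and 87.0% in WT tumours 1 to 3. Ezh2 made up 26.6% and 27.0% of the Ezh1 and Ezh2 TPM (exact permutation p = 0.91). Between GKO and WT over the 3 tissues, the exact permutation p was 0.282 for the share of Rnf2, 0.608 for that of Bmi1 and 0.638 for that of Ezh2.

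**Figure D2:**
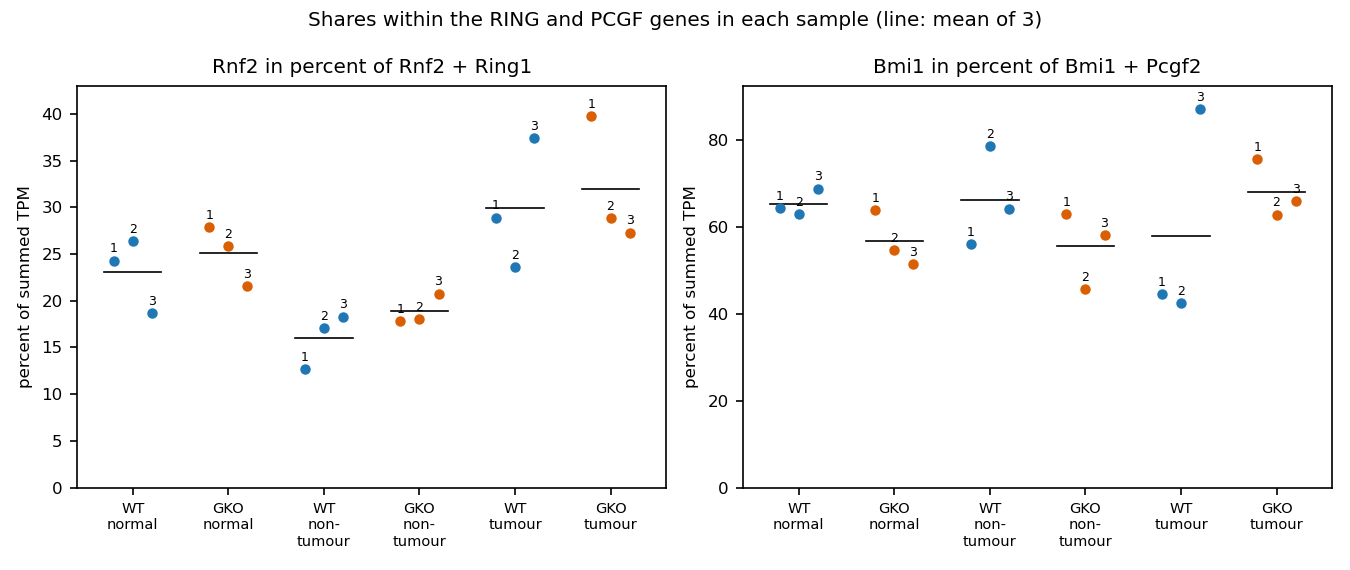
Rnf2 in percent of the Rnf2 and Ring1 TPM (left) and Bmi1 in percent of the Bmi1 and Pcgf2 TPM (right), by group on the x axis, with 1 numbered point per sample (blue, WT; orange, GKO) and a line at the mean of 3. The Rnf2 share of every tumour, at 23.6% or more, was above that of every non-tumour liver, at 20.8% or less, and the Bmi1 share was lowest in WT tumours 1 and 2 and highest in WT tumour 3.

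Bmi1 (chr2:18677018-18686629, plus strand) and Pcgf2 (chr11:97688823-97700497, minus strand) encode alternative PCGF partners of the RING ligases, and their levels were opposite in WT tumours. Bmi1 was at 8.37, 7.29 and 15.1 TPM and Pcgf2 at 10.5, 9.91 and 2.25 TPM in WT tumours 1 to 3, so that Bmi1 was highest and Pcgf2 lowest of all 18 samples in WT tumour 3. In GKO tumours Bmi1 was at 13.6, 11.6 and 13.2 TPM, above all 3 GKO non-tumour livers at 9.42, 7.90 and 8.15 TPM. Over both genotypes the tumour difference was 0.31 ± 0.21 for Bmi1 (limma adjusted p = 0.322) and 0.13 ± 0.30 for Pcgf2 (adjusted p = 0.784, and -0.035 by voom). In WT mice alone Pcgf2 differed by 0.42 ± 0.49 (adjusted p = 0.694), and by 1.01 (adjusted p = 0.0335) without WT tumour 3.

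Ezh2 (chr6:47530139-47595341, minus strand), the methyltransferase of PRC2 that dividing cells use most, was at 1.16, 1.80 and 0.577 TPM in WT tumours and at 0.729, 1.67 and 0.751 TPM in WT non-tumour livers. In GKO mice it was at 1.31, 1.14 and 1.81 TPM in tumours and at 0.765, 0.975 and 1.02 TPM in non-tumour livers, with no overlap. The tumour difference was 0.20 ± 0.18 (limma adjusted p = 0.433). Leaving out both WT tumour 3 and WT non-tumour liver 2 gave 0.41, the highest of 19 alternatives. None of these called Ezh2, with limma adjusted p of 0.0516 or more. The summed TPM of 20 proliferation genes was 296, 265 and 62.7 in WT tumours 1 to 3, 118, 89.9 and 196 in GKO tumours, and 40.9, 146 and 40.7 in WT non-tumour livers. WT tumour 3 was thus lowest among tumours and WT non-tumour liver 2 highest among livers in both Ezh2 and the proliferation genes. In tumours against non-tumour livers over both genotypes, limma called 14 of the 20 proliferation genes higher, beside 12.9% of all 14106 genes. The part of dividing cells in the Ezh2 values was not tested.

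Taken within 1 genotype, limma called 0 of the 9 members in tumours against non-tumour livers, in WT mice (4.23% of all genes called) and in GKO mice (11.7%). At an unadjusted p under 0.05 there was 1 in WT mice (19.9% of genes) and 3 in GKO mice (31.7%), and limma voom on recovered reads called 0 and 1. Groups did not overlap for 2 of the 9 members in WT mice, Cbx2 and Rnf2, and for 5 in GKO mice, Cbx7, Cbx6, Rnf2, Bmi1 and Ezh2, against 24.8% and 38.3% of all genes.

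**Figure D3:**
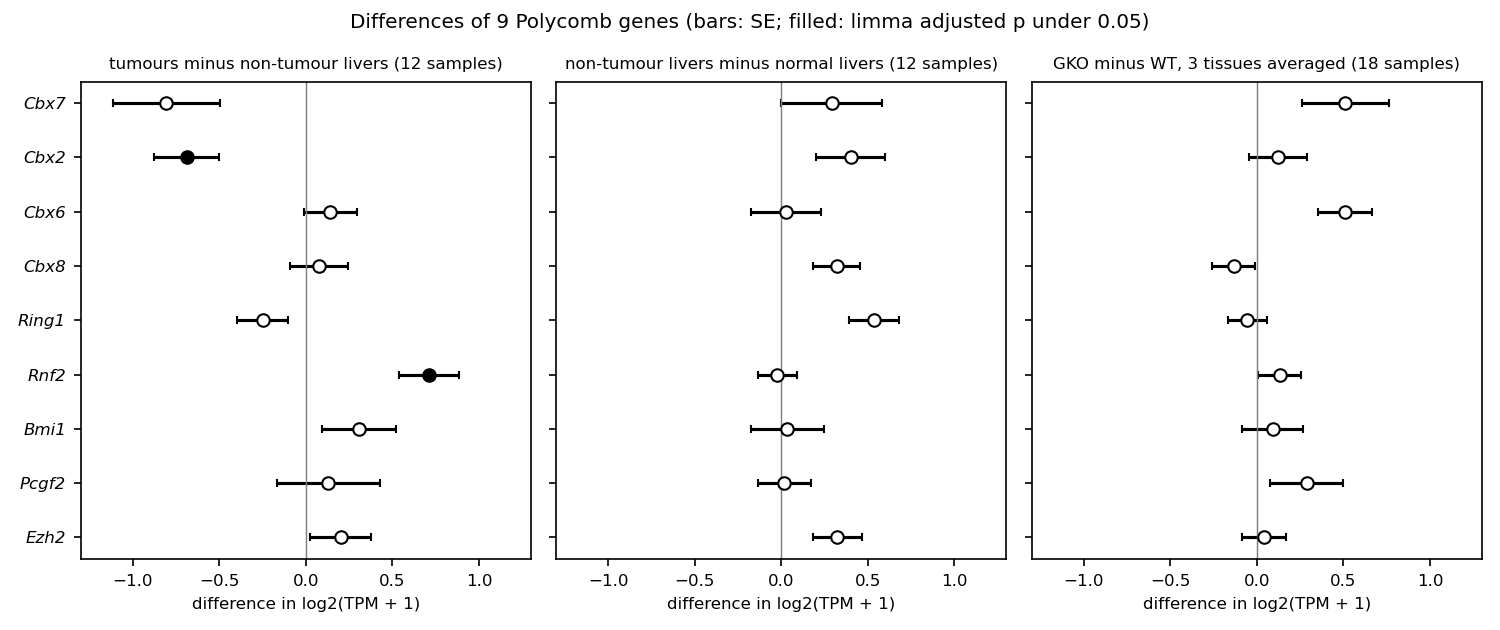
Difference in log2(TPM + 1) of the 9 genes with its standard error (x axis), for tumours against non-tumour livers, non-tumour against normal livers, and GKO against WT over 3 tissues. Filled points, Rnf2 at 0.71 and Cbx2 at -0.69, passed an adjusted p of 0.05 in limma, and 0 members did so in the other 2 panels.

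Few of the other Polycomb genes were called in tumours against non-tumour livers, beside 21.3% of all 14106 genes (12.9% higher and 8.46% lower). Of 18 other PRC1 genes tested, Rybp, a subunit of the variant complexes that work without CBX proteins, rose by 0.60 ± 0.19 (limma adjusted p = 0.0435), and Pcgf1, the PCGF protein of one such complex, fell by 0.44 ± 0.14 (adjusted p = 0.0381). Of 10 other PRC2 genes, Rbbp7, a histone-binding subunit, rose by 0.58 ± 0.17 (adjusted p = 0.0357), and Phf1, an accessory subunit, fell by 0.77 ± 0.23 (adjusted p = 0.0348). Of 7 genes tested for proteins that remove Polycomb marks or belong to the H2A deubiquitinase complex, 0 were called. At an unadjusted p under 0.05 there were 2 (36.2% of all genes). The smallest p in this list belonged to Asxl1 (0.40, adjusted p = 0.0834), Usp16 (0.43, adjusted p = 0.0839) and Asxl2 (-0.09, adjusted p = 0.678). The median difference was 0.13 for the 9 members, 0.03 for the other PRC1 genes and 0.19 for the other PRC2 genes, beside 0.08 over all genes.

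The 2 target genes at the Ink4 locus differed more between tumours and non-tumour livers than any of the 9 members. Cdkn2a was at 7.57 to 83.6 TPM in tumours, 0.98 to 4.08 TPM in non-tumour livers and 0 to 0.731 TPM in normal livers, and rose in tumours by 2.89 ± 0.59 on the log2 scale (limma adjusted p = 0.0064). Cdkn2b was at 8.88 to 53.3 TPM in tumours and 0.175 to 7.75 TPM in non-tumour livers, and rose by 3.75 ± 0.53 (adjusted p = 0.00083). The 7.75 TPM was WT non-tumour liver 2, and the other non-tumour livers were at 0.175 to 0.803 TPM. Between GKO and WT tumours Cdkn2a differed by -0.82 ± 1.04 (adjusted p = 0.832) and Cdkn2b by -0.81 ± 0.62 (adjusted p = 0.724), so that neither was called. Cdkn2a also rose in non-tumour against normal livers, by 1.34 ± 0.19 (adjusted p = 0.0325).

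The Hox genes, classical Polycomb targets in development, stayed near the floor. Of 39 Hox genes, 2 to 4 had a mean of at least 0.5 TPM in any group, with Hoxa5 and Hoxb4 among them in all 6, and their summed level was 1.73 to 9.33 TPM. In tumours against non-tumour livers 3 could be tested and 0 were called by limma, also 0 at an unadjusted p under 0.05. Of the 592 genes that the study lists as bound by CBX7 in chromatin immunoprecipitation, 560 matched the table by symbol and 229 were tested. In tumours 47 of them were higher and 27 lower, against 12.9% and 8.46% of all genes, and those with the smallest p were Scn8a (2.22), Igdcc4 (2.67), Unc5b (1.85), Notum (-2.87) and Col4a2 (2.55, log2 differences). In GKO against WT tumours 0 of 228 were called, with 34 at an unadjusted p under 0.05 (8.87% of all genes), and their median difference was 0.14 beside 0.09 over all genes.

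Marker genes of liver cell types also differed between tumours and non-tumour livers, a comparison in which 21.3% of all genes were called. The summed TPM of 10 hepatocyte markers was 204059 to 242729 in tumours and 69714 to 97126 in non-tumour livers, and 4 of the 10 rose. For 10 macrophage markers it was 188 to 551 in tumours and 266 to 1296 in non-tumour livers, and 3 fell. For 10 endothelial markers it was 98.7 to 163 against 60.2 to 142, with 3 higher. For 10 stellate and fibroblast markers it was 54.5 to 193 against 45.0 to 79.2, with 5 higher and 2 lower, and for 7 cholangiocyte markers 68.9 to 1023 against 30.4 to 78.7, with 1 higher. T cell markers (9) summed to 3.78 to 21.7 against 5.0 to 21.7 TPM and B cell markers (6) to 3.46 to 16.6 against 3.48 to 26.4 TPM, with 0 called by limma and 0 and 1 at an unadjusted p under 0.05. No gene of these 7 lists was at 0 in all samples of a group. The part of these cells in the Rnf2, Cbx2 and Cbx7 values was not tested.

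**Figure D4:**
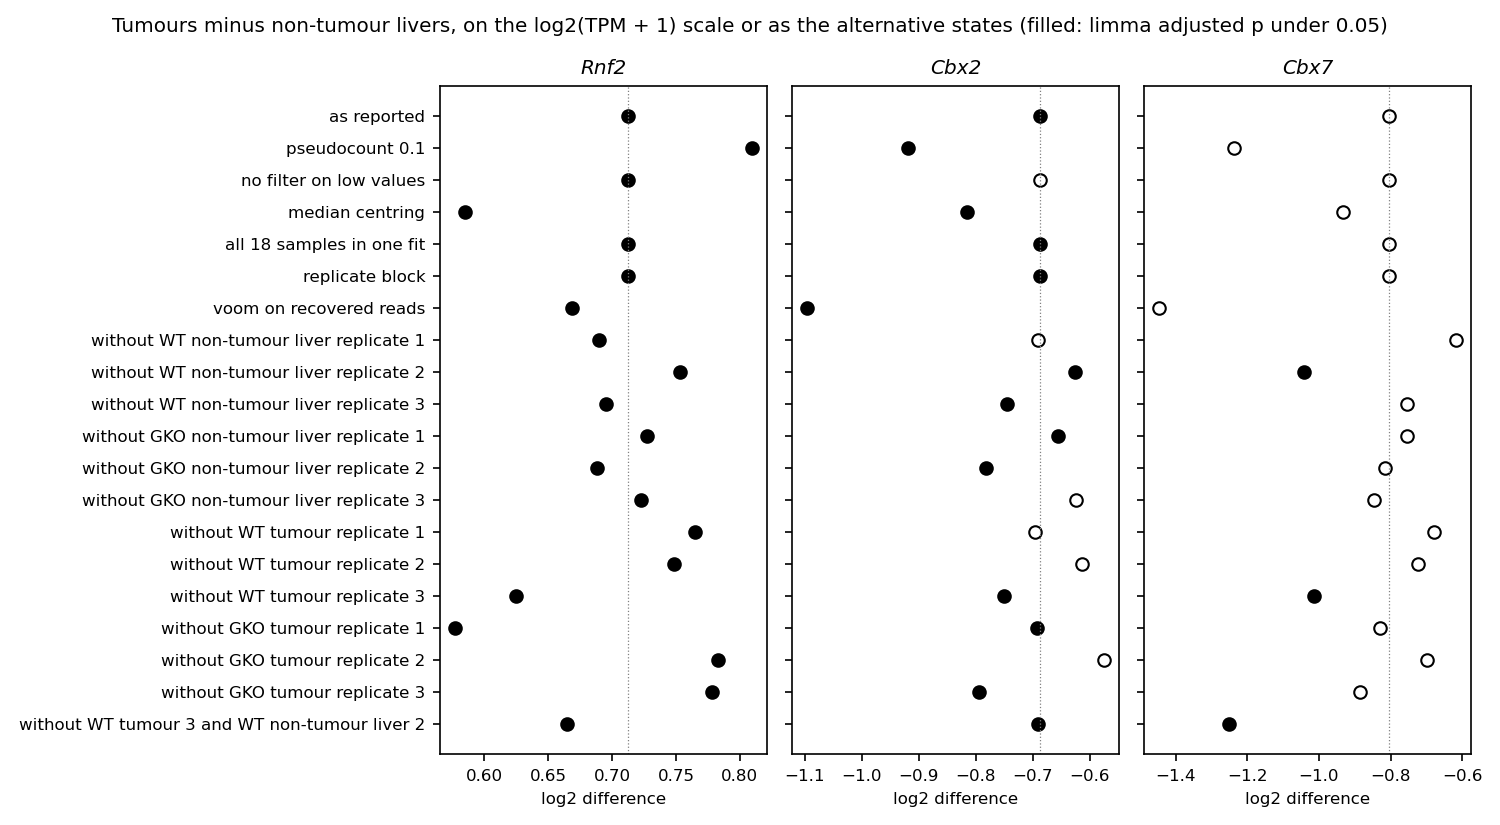
Log2 difference of tumours minus non-tumour livers (x axes, which do not start at 0) for Rnf2, Cbx2 and Cbx7 under each alternative (y axis). Filled points passed an adjusted p of 0.05, which held for Rnf2 in all 20 fits, for Cbx2 in 14 and for Cbx7 in the 3 fits without WT tumour 3, WT non-tumour liver 2 or both.

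The second question was whether loss of miR-181ab1 moved Polycomb genes in tumours, and limma called 0 of the 9 members, as it called 0.0215% of 13964 genes (3 genes, and 0 with the sample number as a replicate block). At an unadjusted p under 0.05 there was 1 member, Cbx6 (8.87% of genes), and limma voom on recovered reads called 0. Cbx6 was at 2.85, 3.30 and 2.84 TPM in GKO tumours and at 1.11, 1.82 and 0.790 TPM in WT tumours, the 1 member of 9 whose groups did not overlap (14.7% of all genes). The difference was 0.86 ± 0.23 (limma adjusted p = 0.414). Of the 10609 exonic bases of Cbx6, 563 are shared with Npcd on the same strand, where reads could be assigned to either gene.

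Cbx7 was higher in GKO than in WT tumours by 0.89 ± 0.40 (limma adjusted p = 0.572), with GKO tumour 2 (1.55 TPM) below WT tumour 3 (2.31 TPM). Without WT tumour 3 the difference was 1.31 (adjusted p = 0.103), with a pseudocount of 0.1 it was 1.61, by voom it was 1.72, and over all 13 alternatives the adjusted p was 0.103 to 0.987. Cbx2 had a difference of 0.64 ± 0.29 (adjusted p = 0.567), with GKO tumour 2 (1.92 TPM) below WT tumour 3 (2.05 TPM). The other members differed by 0.38 ± 0.30 (Rnf2), 0.36 ± 0.29 (Bmi1), 0.27 ± 0.21 (Ring1), 0.18 ± 0.27 (Ezh2), -0.09 ± 0.50 (Pcgf2) and -0.24 ± 0.27 (Cbx8), with adjusted p from 0.727 to 0.968. Among these, the members with a seed match were at 0.89 (Cbx7), -0.24 (Cbx8) and -0.09 (Pcgf2), none of them called. Whether the seed matches played a part in these values was not tested.

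The other Polycomb lists showed 0 calls in GKO against WT tumours. The smallest p among other PRC1 genes belonged to Pcgf3 (0.60 ± 0.34), Dcaf7 (0.32 ± 0.22) and Phc1 (0.35 ± 0.27), with limma adjusted p of 0.648 to 0.727. Among other PRC2 genes, Rbbp4 (0.70 ± 0.21, adjusted p = 0.465) and Ezh1 (0.53 ± 0.21, adjusted p = 0.543) were at an unadjusted p under 0.05, followed by Rbbp7 (0.32 ± 0.19). Among erasers they belonged to Kdm6a (0.38), Bap1 (0.38) and Asxl2 (0.27), with adjusted p of 0.655 to 0.754. Of the proliferation genes 3 of 20 were above 0, with a median difference of -0.36 and 0 called. Summed cholangiocyte markers were at 69.2, 1023 and 549 TPM in GKO tumours 1 to 3 and at 68.9, 79.2 and 137 TPM in WT tumours. Of 5 tested, 3 were higher at an unadjusted p under 0.05 (8.87% of all genes), the only ones of the list above 0. Of 10 stellate and fibroblast markers, 4 were higher at that threshold, and 7 were above 0. The part of these cells in the Cbx7 and Cbx6 values was not tested.

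In non-tumour livers and in normal livers, limma called 0 members between GKO and WT, as it called 0% of all genes, and voom called 0. At an unadjusted p under 0.05 there were 0 members in non-tumour livers (5.8% of genes) and 1 in normal livers (3.96%). That member was Pcgf2, which was at 7.95, 5.77 and 6.30 TPM in GKO and at 4.39, 5.39 and 3.86 TPM in WT normal livers, a difference of 0.47 ± 0.19 (adjusted p = 0.999). In non-tumour livers it was at 5.54, 9.41 and 5.87 TPM in GKO and at 4.73, 3.86 and 5.12 TPM in WT, a difference of 0.49 ± 0.24 (adjusted p = 0.643) beside a median of -0.15 over all genes. Pcgf2 was the 1 member of 9 whose genotypes did not overlap in each of these comparisons (7.95% of genes in normal and 13.2% in non-tumour livers), whereas in tumours the genotypes overlapped. In normal livers markers of other cells differed in the same direction, with 7 of 10 stellate and fibroblast markers, 6 of 10 endothelial and 2 of 5 cholangiocyte markers higher in GKO at an unadjusted p under 0.05 and 0 called by limma. Summed stellate and fibroblast markers were at 66.0 to 92.6 TPM in GKO and 39.9 to 48.6 TPM in WT normal livers, and endothelial markers at 95.6 to 137 and 62.1 to 66.0 TPM. The part of these cells in the Pcgf2 values was not tested.

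Cbx7 differed between the genotypes by 0.51 ± 0.42 in non-tumour livers (limma adjusted p = 0.656) and by 0.14 ± 0.34 in normal livers (adjusted p = 0.999), and Cbx6 by 0.24 ± 0.21 (adjusted p = 0.671) and 0.43 ± 0.32 (adjusted p = 0.999). The Cbx7 value in non-tumour livers rested on WT samples at 5.20, 0.906 and 3.22 TPM. Over 13 alternatives this value ran from 0.034 to 0.94. It was lowest, at 0.034, without the WT sample at 0.906 TPM, so that the difference of 0.51 depended on that sample. Averaged over the 3 tissues, limma called 0 members (0.0216% of 13914 genes), and Cbx6 (0.51 ± 0.16, adjusted p = 0.407) was the 1 member at an unadjusted p under 0.05 (7.73% of genes), with Cbx7 at 0.51 ± 0.25 (adjusted p = 0.659). Whether the genotype effect differed between tumours and non-tumour livers was tested as an interaction, in which 0 members were called (0.0142% of genes). Ring1 was the 1 member at an unadjusted p under 0.05 (10.5% of genes), with 0.66 ± 0.29 (adjusted p = 0.475) beside a median of 0.23 over all genes, and Cbx7 had 0.38 ± 0.62 (adjusted p = 0.817). Over 19 alternatives the Cbx7 interaction ran from 0.0046 to 1.27, with a limma adjusted p of 0.193 or more. The highest value, 1.27, was reached when both outlying WT samples were left out together.

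Non-tumour livers of DEN-treated mice were compared with normal livers of untreated mice to see whether Polycomb genes differed after DEN outside tumours. Limma called 0 of the 9 members (0.378% of 13488 genes) and voom 0, with 3 at an unadjusted p under 0.05 (21.7% of genes). Ring1 was at 31.4, 27.3 and 20.7 TPM in WT and 22.1, 19.2 and 18 TPM in GKO non-tumour livers, against 13.7, 13.8 and 19.9 TPM in WT and 15.4, 13.8 and 16.2 TPM in GKO normal livers. Within each genotype all non-tumour values were above all normal values, as was also so for Ezh2, and the share of all genes with this pattern was not counted. The Ring1 difference was 0.54 ± 0.14 (limma adjusted p = 0.0991). Ezh2 differed by 0.32 ± 0.14 (adjusted p = 0.215), Cbx8 by 0.32 ± 0.13 (adjusted p = 0.202) and Cbx2 by 0.40 ± 0.20 (adjusted p = 0.255). The median over all genes was itself 0.21, and after median centring Ring1 was at 0.29 (adjusted p = 0.372), Ezh2 at 0.08 and Cbx8 at 0.08.

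Other PRC1 and PRC2 genes and erasers had 0 calls there (0.378% of all genes). At an unadjusted p under 0.05 there were 3 of 17, 3 of 9 and 1 of 7 tested (21.7% of all genes). The smallest p belonged to Dcaf7 (0.74, adjusted p = 0.0755), Rybp (0.44) and L3mbtl2 (0.33), to Rbbp7 (0.62, adjusted p = 0.102), Rbbp4 (0.58) and Jarid2 (0.32), and to Usp16 (0.42, adjusted p = 0.16), Kdm6a (0.25) and Asxl2 (0.17). Summed macrophage markers were at 266 to 1296 TPM in non-tumour and 152 to 445 TPM in normal livers, with 0 of 10 called, 6 at an unadjusted p under 0.05 and 10 of 10 above 0. Of 10 endothelial markers, all above 0, 4 were at an unadjusted p under 0.05 and Cdh5 rose (0.98, limma adjusted p = 0.0474). The part of these cells in the Ring1, Ezh2 and Cbx8 values was not tested.

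Genes with a pattern like that of Cbx7 were ranked by Pearson's r on log2(TPM + 1) over the 18 samples, among 13913 genes, as a description. The highest were Gm27463 (r = 0.85), Pcsk4 (0.84), Bnip3 (0.83), Gm16124 (0.82) and Gm28557 (0.82), and the lowest were Fbp2 (-0.88), Nol12 (-0.86), Tubb4b (-0.86), C9orf72 (-0.84) and Insyn1 (-0.83). Within the 6 tumours r was 0.88 to 0.97 and -0.95 to -0.93, and within the 12 livers 0.62 to 0.74 and -0.82 to -0.62, in the same samples that chose the genes. The points share their tissue and genotype. Bnip3, a mitophagy receptor, had a mean of 31.4 TPM in WT tumours and 62.1 to 89.4 TPM in the other groups, and Fbp2, a fructose-bisphosphatase, had 6.19 TPM in WT tumours and 0.515 to 1.61 TPM elsewhere. Among the members Cbx2 was most like Cbx7 (r = 0.54, rank 811), with r = 0.86 in tumours and 0.05 in livers, and Ezh2 least (r = -0.37). Bmi1 was at 0.92 with Cbx7 within the tumours and at -0.57 within the livers, and Rnf2 at 0.71 and -0.57.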

How the data were processed

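RNA-seq values of 18 samples were used, grouped by genotype and tissue as labelled. Per the submitters' processing notes, STAR 2.7.3a served for alignment and featureCounts 2.0.0 for counting. The authors deposited TPM, which sums to 1000000 per sample and carries no depth. The annotation, the TPM step and the use of strand were not given in the sources used here, so reads in exons shared with an opposite-strand gene (Cbx7 with Apobec3, Rnf2 with Trmt1l, Ezh2 with Gm26625) could belong to either. TPM times exonic length (GENCODE release M21, mm10, 54809 of 54838 genes) gave whole reads, within 0.02, for 97.95% to 98.67% of values up to 30 reads. Columns without a sample numbered 0.

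The main test was limma (3.58.1, under R 4.3.3; linear fit and empirical Bayes with a trend). It took log2(TPM + 1) of those genes whose mean reached 0.5 TPM in the samples compared, and was two-sided, with Benjamini-Hochberg adjustment over all genes tested and calls at an adjusted p under 0.05. All 9 members passed this filter in all 9 comparisons. An exact permutation of 3 against 3 samples cannot go below p = 0.1. Shares were compared by exact permutation within genotype or tissue, in 8 tests, of which 2 are not reported here. Tables, permutations and plots were made with pandas 2.3.3, scipy 1.17.1, numpy 2.4.6 and matplotlib 3.10.9 under Python 3.11.15, and the tests were checked on simulated data.

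The members and all lists were chosen with earlier results of these data known. Named were the 9 members, Cdkn2a and Cdkn2b, other Polycomb genes that were called or, failing that, the 3 of smallest p (for tumours, genotype in tumours and DEN), at most 5 called Hox genes or CBX7-bound genes, and the 5 genes most and least correlated with Cbx7. Samples with the same number deviated together (r over 0.1 in each of 3 pairs) for WT and GKO tumours, which was 1 of 15 pairs of groups. Over all 45 pairs of samples r ran from -0.32 to 0.25, with a median of 0.00. A replicate block was in no main fit and was tried only as an alternative. Alternatives comprised no filter, a pseudocount of 0.1, median centring, 1 fit of all 18 samples, a replicate block, voom on recovered reads, leaving out each sample and, added after seeing the data, leaving out WT tumour 3 and WT non-tumour liver 2 together.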

Additional observations from a re-analysis of the deposited data

How the results depend on the processing

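Of 637 refits of the reported member differences, 606 kept sign and side of the threshold, 12 passed it anew, 6 lost it and 13 changed sign, the last in members near 0. In GKO against WT tumours these were Pcgf2 (0.22, 0.19 and 0.09 without WT tumour 1, WT tumour 2 or GKO tumour 1) and Ezh2 (-0.035 without WT tumour 3, alone or with WT non-tumour liver 2, in a range of -0.035 to 0.38 without 1 sample). In tumours against non-tumour livers they were Cbx8 (-0.051 centred, -0.074 by voom, -0.024 without GKO tumour 3) and Pcgf2 (-0.035 by voom, -0.028 and -0.01 without WT tumour 1 or 2, up to 0.43 without WT tumour 3). In GKO against WT normal livers it was Cbx7 (-0.044 without WT normal liver 1, -0.19 without GKO normal liver 3, up to 0.39 without WT normal liver 3). For Cbx2 in tumours, the value with no filter was -0.69, with an adjusted p of 0.0584 over more genes tested, and leaving out 1 sample gave -0.79 to -0.57. For Cbx7 it gave -1.04 to -0.62, and -1.25 without both outlying samples. Members called in tumours against non-tumour livers numbered 1 with no filter and 1 to 3 without 1 sample, and 3 without both. In WT alone they numbered 1 with all 18 samples, 0 to 2 without 1 sample and 3 without both, and in GKO alone 1 with centring or voom (Cbx7) or all 18 samples (Rnf2). Genes called moved as follows, and the cause was not tested. For GKO against WT tumours, 3 became 0 with a pseudocount of 0.1, no filter, centring, voom or the replicate block, 107 with all 18 samples, 0 to 147 without 1 sample and 147 without both. For WT tumours against non-tumour livers, 592 became 297 with no filter, 361 with the replicate block, 1649 with all 18, 163 to 1363 without 1 and 3099 without both. For GKO tumours against non-tumour livers, 1652 became 589 with no filter, 2722 with all 18 and 229 to 1567 without 1. For tumours against non-tumour livers in both genotypes, 3009 became 1908 to 3737 without 1. For GKO against WT non-tumour livers, 0 became 1 with all 18. For GKO against WT over tissues, 3 became 0 with a pseudocount of 0.1 or voom, 8 with no filter, 3 to 72 without 1 and 79 without both. For non-tumour against normal livers, 51 became 14 with no filter, 3 centred, 23 with the replicate block, 2 by voom and 0 to 318 without 1. For the interaction, 2 became 0 with a pseudocount of 0.1 or voom, 4 with no filter, 13 with all 18, 2 to 91 without 1 and 85 without both. The replicate block changed no call of a member. Read numbers were low for Cbx7 in WT tumours 1 and 2 (16 and 25) and for Ezh2 in all samples (25 to 99).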
